A study of Homo sapiens with 43 samples.

Results

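The genes described here encode the aminoacyl-tRNA synthetases, the enzymes that attach each amino acid to its tRNA. They are 36 of the 20037 protein-coding genes of the gene table used, taken by name: 20 for enzymes that work in the cytoplasm and 16 for enzymes that work in mitochondria. HARS1 and HARS2 and other such pairs are separate genes for the compartments, and GARS1 and KARS1, which supply both, are counted with the cytoplasmic genes. The genes were followed through 33 deposited peak lists of chromatin immunoprecipitation with sequencing (ChIP-seq).

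Both cell lines used, SUDHL5 and KARPAS422, are established and derive from diffuse large B-cell lymphoma. Treated cells received 30 nM CDK-TCIP1, which joins a ligand for CDK9 to a ligand for BCL6. CDK9 is a kinase that frees RNA polymerase II from its pause near gene starts, and BCL6 represses transcription in B cells of the germinal centre. Control cells received DMSO, and both groups held 0.1% DMSO. CDK9 was mapped after 2 h in 3 sets of 2 CDK-TCIP1 and 2 DMSO lists each: antibody ab239364 in SUDHL5, antibody CST2316S in SUDHL5 and CST2316S in KARPAS422. The labels put both groups at 2 h, while the names of the deposited files place the CDK9 DMSO samples at the start of treatment. If those names were right, the CDK9 comparisons would differ in time as well. The antibody is CST2316S in the sample titles and CST2361S in the protocol. In SUDHL5, the polymerase phosphorylated at serine 2 of its C-terminal repeats (Ser2P) and at serine 5 (Ser5P) was mapped in CDK-TCIP1 at 2 h, CDK-TCIP1 at 4 h and DMSO at 4 h, with 2 lists per group. Total RNA polymerase II (Pol II) was mapped in the same groups with 3 lists each. The 2 h and 4 h comparisons of the polymerase forms thus share their DMSO lists, and the 2 h comparison differs from DMSO in time as well.

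The number of peaks in a list ran from 138 to 28951, and depth is unknown because the lists carry no read totals. The CDK9 lists of CDK-TCIP1-treated SUDHL5 held 9262 to 11148 peaks, against 915 to 3508 in DMSO, and those of KARPAS422 held 14554 and 10297 against 6689 and 7804. The B-cell marker genes PAX5, CD79A, CD79B and MS4A1 each had a CDK9 peak in some list of each set, while none of 3 myeloid and 3 epithelial or liver markers did. Of 3 T-cell markers, 1 had CDK9 peaks in SUDHL5 with either antibody and 2 in KARPAS422. Whether replicates came from separate cultures is not stated, so a p-value here measures only the spread between these samples, which may be technical.

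Each synthetase recognises its amino acid and its tRNAs and joins them at the cost of ATP, and the loaded tRNA then feeds the ribosome. Several cytoplasmic enzymes sit in a multi-synthetase complex. When amino acids run short or the endoplasmic reticulum is stressed, the transcription factor ATF4 raises many cytoplasmic synthetase genes through C/EBP-ATF response elements, while the mitochondrial enzymes are nuclear-encoded and imported. Ser5P marks polymerase near the gene start and Ser2P, which CDK9 promotes, marks polymerase that is elongating through the gene.

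The promoter sequences were searched for cores of response elements. RefSeq promoter entries of GRCh38.p14, from 250 bases before to 50 bases after a gene start, were matched for 30 of the 36 genes: 16 cytoplasmic and 14 mitochondrial. AARS2, LARS1, TARS3, VARS1, VARS2 and YARS1 had none. The core of the C/EBP-ATF response element, searched as TGATGNAA on both strands, lay in the entries of 7 of 16 cytoplasmic genes (43.8%) and 1 of 14 mitochondrial genes (7.14%), against 3.60% of the 15843 genes with an entry. In 6 of these 8 genes it read TGATGCAA on one strand. The sites are printed because the element is shared by genes that take part in the results; capitals mark the core, and each runs in the direction of transcription.
AARS1 (chr16:70289678-70289701, minus strand): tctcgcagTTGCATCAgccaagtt
CARS1 (chr11:3057410-3057433, minus strand): ggcggcggTTGCATCAgattctag
GARS1 (chr7:30594837-30594860, plus strand): cgcggcgaTTTCATCAtgctccga
IARS1 (chr9:92293695-92293718, minus strand): tcagcgcgTTGCATCAcctccgtg
MARS1 (chr12:57488056-57488079, plus strand): ggttccggTTGCATCAgcgaggga
NARS1 (chr18:57621807-57621830, minus strand): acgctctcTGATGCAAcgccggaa
TARS1 (chr5:33440959-33440982, plus strand): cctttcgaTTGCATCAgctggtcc
YARS2 (chr12:32756079-32756102, minus strand): cacactgcTGATGGAAaaattaag

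The other cores, again searched on both strands, were found in fewer of the genes. TTCNNNGAA, a core of the sequence that BCL6 binds, lay in 3 of 16 cytoplasmic entries (CARS1, TARS1, WARS1) and 2 of 14 mitochondrial entries (PARS2, WARS2), against 8.98% of all genes. It overlapped no TGATGNAA match. GCGCATGC, a core of the sequence bound by NRF1, a regulator of genes for mitochondrial proteins, lay in MARS2 and YARS2 only, 2 of 14 mitochondrial and 0 of 16 cytoplasmic genes, against 4.89% of all genes. The E-box CACGTG lay in 3 of 14 mitochondrial genes (CARS2, EARS2, MARS2) and in IARS1, 1 of 16 cytoplasmic genes, against 10.9%. A match is a description of these letters in this window and not a bound site.

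TARS1, the cytoplasmic threonyl-tRNA synthetase, is printed in full because its CDK9 peak is the result that all CDK9 sets share. It has a pair of RefSeq starts on the plus strand of chromosome 5, and both TTCNNNGAA and TGATGNAA matches are in capitals.
TARS1, upstream start (chr5:33440446-33440745): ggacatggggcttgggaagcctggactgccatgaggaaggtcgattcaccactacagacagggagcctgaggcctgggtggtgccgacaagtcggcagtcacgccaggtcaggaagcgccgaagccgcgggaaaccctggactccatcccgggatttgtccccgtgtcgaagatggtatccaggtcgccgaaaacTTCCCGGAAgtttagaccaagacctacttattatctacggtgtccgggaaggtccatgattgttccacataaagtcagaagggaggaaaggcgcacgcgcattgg
TARS1, downstream start (chr5:33440715-33441014): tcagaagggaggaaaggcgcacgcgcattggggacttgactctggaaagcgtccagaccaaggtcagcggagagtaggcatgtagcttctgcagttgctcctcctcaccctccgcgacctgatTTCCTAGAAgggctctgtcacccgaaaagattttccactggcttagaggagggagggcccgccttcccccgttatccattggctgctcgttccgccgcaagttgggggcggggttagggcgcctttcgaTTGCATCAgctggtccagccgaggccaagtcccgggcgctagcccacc
The TTCNNNGAA matches begin 55 bases before the upstream start and 127 bases before the downstream start, which lies 269 bases into the gene. The TGATGNAA match begins at base 3 after the downstream start.

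The first question was where CDK9 was found at these genes after CDK-TCIP1. A gene had a peak when one lay within 1 kb of either gene end. It is called gained when every CDK-TCIP1 list of a set and none of its DMSO lists held such a peak, and lost when the reverse was true. With ab239364 in SUDHL5, 8 of 36 synthetase genes were gained (22.2%), against 7.57% of all genes. With CST2316S in SUDHL5, 3 were gained, against 6.31% of all genes, and in KARPAS422 2 were gained, against 4.38%. No synthetase gene was lost in any set, where 0.00998%, 0% and 0.629% of all genes were. One gene, TARS1, was gained in all 3 sets, as were 94 genes in all, 0.469% of all genes and 0.632% of the genes with no CDK9 peak in any DMSO list.

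Genes with Ser5P in DMSO gained CDK9 more often than the average gene. Among genes with no DMSO CDK9 peak in the set and a Ser5P peak in both DMSO lists, 5 of 13 synthetase genes were gained with ab239364, against 32.9% of such genes. The same counts were 3 of 22 against 19.3% with CST2316S in SUDHL5 and 2 of 9 against 18.5% in KARPAS422. Ser5P was mapped in SUDHL5 only, with DMSO at 4 h. The KARPAS422 count thus rests on Ser5P of the other line. The shares of synthetase genes were thus near those of other genes with Ser5P in SUDHL5.

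**Figure D1:**
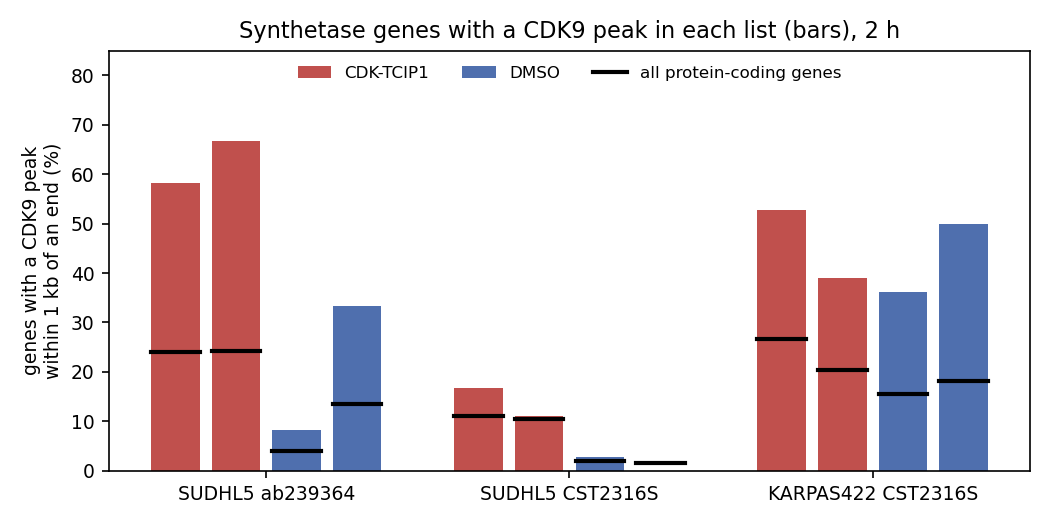
Percentage of the 36 synthetase genes with a CDK9 peak within 1 kb of a gene end, one bar per list, CDK-TCIP1 left of DMSO in each set; the black lines give the percentage of all 20037 protein-coding genes in the same list. With ab239364 the bars stand at 58.3% and 66.7% after CDK-TCIP1, against 8.33% and 33.3% in DMSO, while in KARPAS422 the groups overlap.

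The share of synthetase genes with a CDK9 peak in each list differed by antibody and line. With ab239364 it was 58.3% and 66.7% after CDK-TCIP1, against 8.33% and 33.3% in DMSO, where all genes stood at 24% and 24.2% against 3.95% and 13.4%. With CST2316S in SUDHL5 it was 16.7% and 11.1% after CDK-TCIP1, against 2.78% and 0% in DMSO, with all genes at 11.1% and 10.4% against 1.91% and 1.58%. In KARPAS422 it was 52.8% and 38.9% after CDK-TCIP1, against 36.1% and 50% in DMSO, so that the groups overlapped, while all genes stood at 26.7% and 20.4% against 15.5% and 18.2%. Synthetase genes carried CDK9 more often than the average gene in 11 of the 12 lists, the exception being DMSO replicate 2 of CST2316S in SUDHL5. That list held no synthetase peak.

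TARS1 had no CDK9 peak in any of 6 DMSO lists and a peak in all 6 CDK-TCIP1 lists. Peaks of ab239364 covered 1240 and 1621 bp of its gene-end windows after CDK-TCIP1, against 0 and 0 bp in DMSO. Peaks of CST2316S covered 1779 and 1762 bp after CDK-TCIP1, against 0 and 0 bp in DMSO, in SUDHL5, and 1896 and 1647 bp against 0 and 0 bp in KARPAS422. Treated and DMSO lists do not overlap in any set, and TARS1 shares its windows with no other protein-coding gene.

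The TARS1 peaks were also among the strong ones of their lists. The authors' fold enrichment, a ratio over each list's own background, was 7.42 and 6.09 for ab239364. It was 10.2 and 7.52 for CST2316S in SUDHL5 and 15.5 and 14.4 in KARPAS422. Ranked by q, they stood within the first 11.3% and 11.2%, the first 7.36% and 11.6%, and the first 3.79% and 3.85% of their lists. The summits lay 404 to 576 bases after the annotated gene start, which is 135 to 307 bases after the downstream start, past the last base printed above. The peaks were 1.24 to 2.2 kb wide and covered both TTCNNNGAA matches and the TGATGNAA match in all 6 lists.

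**Figure D2:**
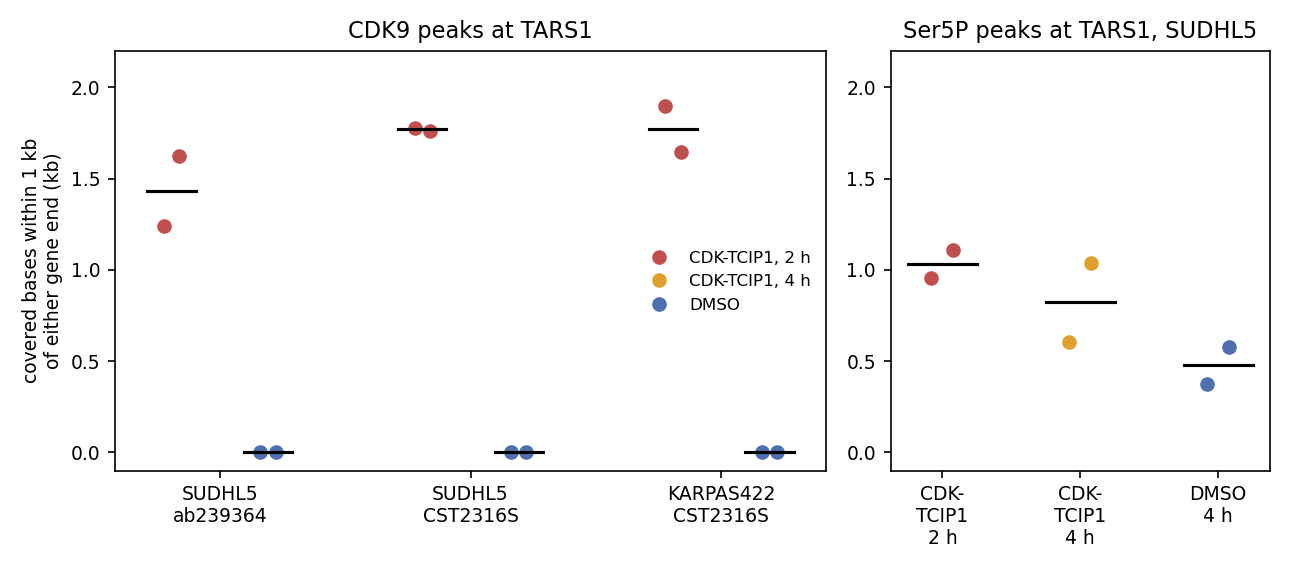
Bases within 1 kb of either end of TARS1 covered by CDK9 peaks (left, 3 sets at 2 h) and by Ser5P peaks (right, SUDHL5), in kb; each point is 1 list and each black line a group mean. CDK9 cover lies between 1.24 and 1.9 kb in the 6 CDK-TCIP1 lists and at 0 in the 6 DMSO lists, and Ser5P cover is lowest in DMSO.

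The other ab239364 gains were smaller peaks at gene starts. GARS1, the glycyl enzyme, had 608 and 663 bp of cover after CDK-TCIP1, against none in DMSO, with summits 80 and 102 bases after the gene start. RARS1 and SARS2, the cytoplasmic arginyl and mitochondrial seryl enzymes, had 300 and 1014 bp and 497 and 706 bp after CDK-TCIP1, against none in DMSO. WARS2, the mitochondrial tryptophanyl enzyme, had 305 and 339 bp after CDK-TCIP1 and none in DMSO. These peaks ranked low, between the first 44.4% and the first 97.1% of their lists, unlike TARS1.

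HARS1 and HARS2 were gained together because they are one event. The cytoplasmic and mitochondrial histidyl genes start back to back on chromosome 5, and a single peak of 323 and 399 bp lies over both starts after CDK-TCIP1, against none in DMSO. TARS3, a second threonyl gene, counted as gained only by the edges of peaks, 174 and 75 bp, whose summits lie outside its window beside TM2D3. Without genes that share a window with another protein-coding gene, 4 gains were left with ab239364 (GARS1, RARS1, TARS1, WARS2), 1 with CST2316S in SUDHL5 (TARS1) and 1 in KARPAS422 (TARS1).

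The remaining CST2316S gains in SUDHL5 were YARS1 and EARS2. YARS1, the cytoplasmic tyrosyl enzyme, had 577 and 647 bp of cover after CDK-TCIP1, against none in DMSO; S100PBP and NHSL3 share its windows. In KARPAS422 YARS1 had 1701 and 1923 bp after CDK-TCIP1, against 560 and 1174 bp in DMSO, and with ab239364 1110 and 1110 bp against 0 and 1139 bp, where the groups overlap. EARS2, the mitochondrial glutamyl enzyme, had 481 and 679 bp against none, and these peaks lie at its far end. With ab239364, EARS2 instead had peaks at its start, 355 and 513 bp after CDK-TCIP1, against 0 and 984 bp in DMSO.

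In KARPAS422 the second gain was AARS2, the mitochondrial alanyl enzyme, with 367 and 353 bp after CDK-TCIP1, against none in DMSO. WARS2 had 675 and 690 bp after CDK-TCIP1, against 581 and 0 bp. FARSB, the beta subunit of the cytoplasmic phenylalanyl enzyme, went the other way, with 382 and 0 bp after CDK-TCIP1, against 970 and 1001 bp in DMSO. It was the only synthetase gene whose CDK9 cover was lower in every CDK-TCIP1 list than in every DMSO list of a set.

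Cover that does not overlap between the groups was used as a further call, added after the values were seen. A gene is called higher where every CDK-TCIP1 list lay above every DMSO list, and lower where every one lay below. CDK9 cover was higher at 16 synthetase genes for ab239364, against 16% of all genes, and at 3 for CST2316S in SUDHL5, against 8.11%. In KARPAS422 it was higher at 6 synthetase genes, against 10.1% of all genes. A gene with no peak cannot be higher. Among genes with a CDK9 peak in any list of the set, it was 16 of 27 synthetase genes for ab239364, against 3206 of 5976 genes. For CST2316S it was 3 of 6 against 1624 of 2617 in SUDHL5 and 6 of 23 against 2018 of 6184 in KARPAS422. CDK9 cover was lower at 0 for ab239364 (0.00998% of all genes), at 0 for CST2316S in SUDHL5 (0.0150%) and at 1, FARSB, in KARPAS422 (2.39%).

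AARS1, the cytoplasmic alanyl enzyme, carried CDK9 in more lists than any other synthetase gene, 11 of 12. With ab239364 it had 1012 and 1050 bp after CDK-TCIP1, against 578 and 194 bp in DMSO, a difference outside the spread of the lists. With CST2316S it had 1047 and 721 bp after CDK-TCIP1, against 986 and 0 bp in DMSO, in SUDHL5, and 1662 and 1556 bp against 1024 and 1653 bp in KARPAS422, where the groups overlap. EXOSC6 and DDX19B share the windows of AARS1, so that this cover may belong to them. With ab239364, peaks covered its promoter entry in 2 of 2 CDK-TCIP1 and 0 of 2 DMSO lists. No CDK9 summit lay in that entry in any list. After AARS1 came YARS1 with 9 lists, and IARS1, KARS1 and TARS2 with 8.

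Over all 3 sets, 21 of the 36 genes had a CDK9 peak in more CDK-TCIP1 than DMSO lists, 14 cytoplasmic and 7 mitochondrial, against 30.8% of all genes. EPRS1 and WARS1 had one in fewer, against 2.61% of all genes, and 13 were equal. A CDK9 peak was found in no list at 7 of these 13: MARS1, FARS2, IARS2, NARS2, PARS2, RARS2 and VARS2, 6 of them mitochondrial, as at 61.4% of all genes. Such genes cannot have a peak in more CDK-TCIP1 lists. Without them, 21 of 29 synthetase genes had one in more. The 30.8% stands for 6172 of all 20037 genes, of which 12294 had no CDK9 peak in any list. Without those, the share of all genes was above that of the synthetase genes. At FARS2 the window misses the promoter. Its RefSeq promoter starts lie 11.1 and 11.6 kb inside the annotated gene, and with ab239364 peaks covered the second of them in 2 of 2 CDK-TCIP1 and 2 of 2 DMSO lists. CARS2, with promoter starts 7.01 and 7.41 kb inside its gene, is the other gene of this kind.

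**Figure D3:**
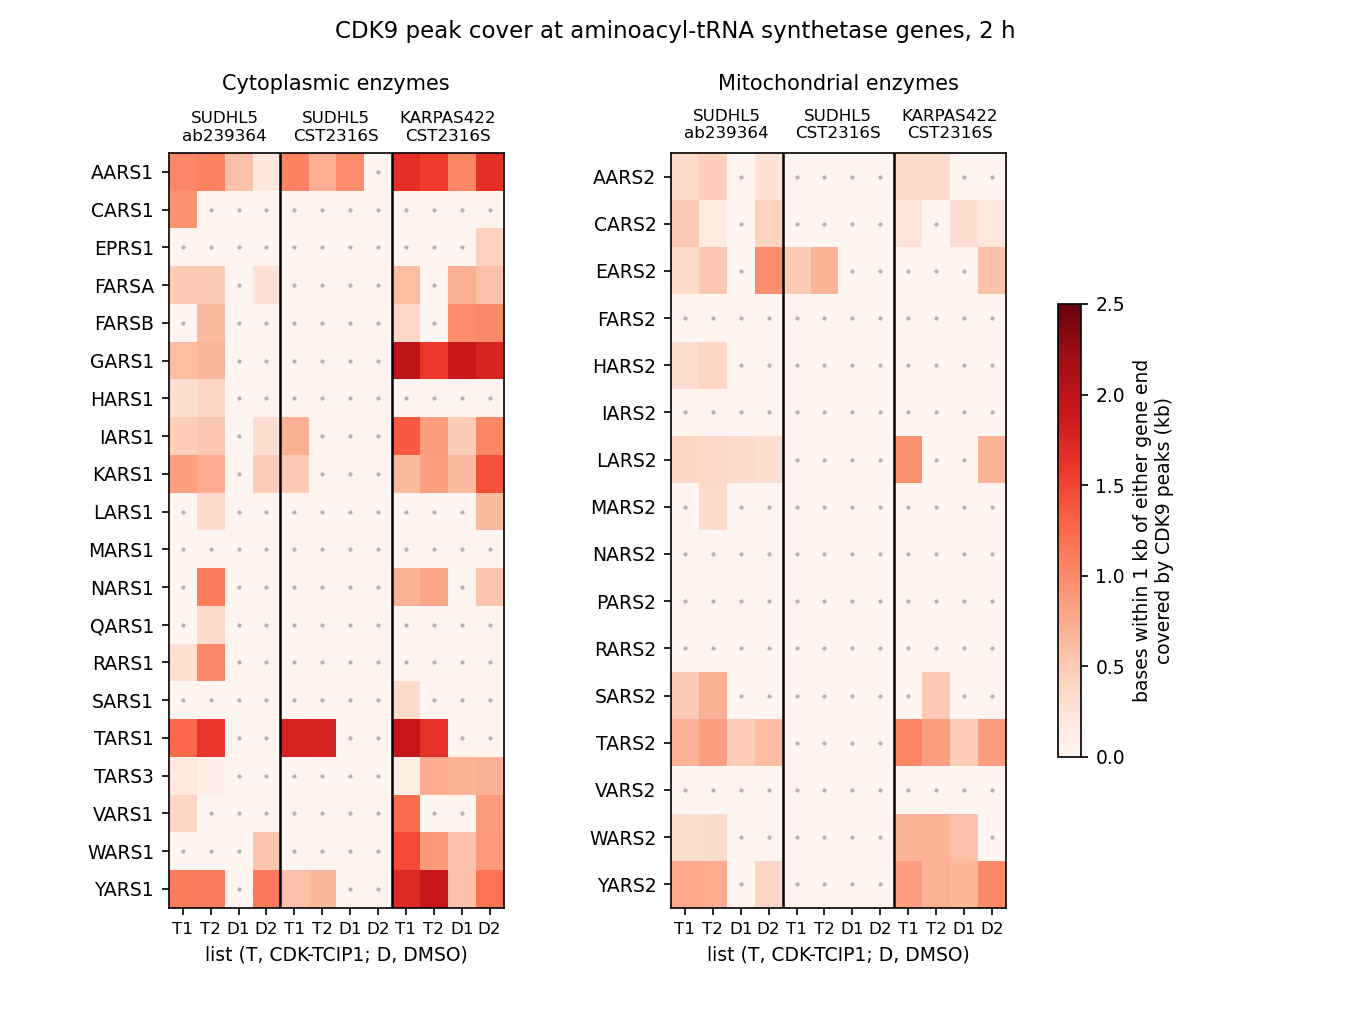
Bases within 1 kb of either gene end covered by CDK9 peaks (colour, kb) for the 20 cytoplasmic and 16 mitochondrial synthetase genes, one column per list, with CDK-TCIP1 lists (T) left of DMSO lists (D) in each set; grey dots mark 0. TARS1 is filled in all 6 CDK-TCIP1 lists and empty in all 6 DMSO lists.

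An exact two-sided permutation test of log2(covered bases + 100) joined the 3 CDK9 sets, relabelling lists within each set and both SUDHL5 antibodies together, with Benjamini-Hochberg adjustment over all 20037 genes. It has 36 relabellings, so that no p can be below 0.0556. TARS1 had a mean difference of 4.12 on this log2 scale (exact permutation p = 0.0556, adjusted p = 0.961), the largest of the 36 genes. YARS1 at 1.89, WARS2 at 1.22 and AARS2 at 1.19 also reached the smallest p, which 5.78% of all genes did. No synthetase gene and no other gene passed at an adjusted p of 0.05, and 0 genes had an unadjusted p under 0.05. The median difference was 0.367 over the 36 genes and 0 over all genes. The second is 0 because 12294 of the 20037 genes had no CDK9 peak in any list. Among genes with a peak in any list of a set, the median change in cover was smaller for synthetase genes than for all. It was 0.332 against 0.398 kb for ab239364, 0.485 against 0.539 kb for CST2316S in SUDHL5 and 0.172 against 0.227 kb in KARPAS422.

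The second question was what elongating polymerase did. Ser2P was measured as the bases of the gene and 2 kb on either side that peaks covered. In SUDHL5 Ser2P covered less of the cytoplasmic genes after CDK-TCIP1. The median cover of the 20 cytoplasmic genes was 0.736 kb at 2 h and 0.95 kb at 4 h after CDK-TCIP1, against 2.02 kb in DMSO. The median of the 16 mitochondrial genes was 0.179 kb at 2 h and 0.474 kb at 4 h, against 0.16 kb in DMSO. The median change of the cytoplasmic genes was -1.31 kb at 2 h and -0.712 kb at 4 h, and that of the mitochondrial genes was -0.131 and 0.24 kb. Over all genes with a Ser2P peak in any list of the comparison it was -0.251 and -0.0915 kb.

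The same call of non-overlapping cover was made for Ser2P. At 2 h, 8 of 20 cytoplasmic genes were lower and 0 higher, and 1 of 16 mitochondrial genes (SARS2) was lower and 0 higher, against 13.3% of all genes lower and 0.649% higher. At 4 h, 10 of 20 cytoplasmic genes were lower and 3 higher (KARS1, TARS1, TARS3), while 0 of 16 mitochondrial genes were lower and 7 higher (FARS2, HARS2, IARS2, MARS2, NARS2, PARS2, WARS2). For all genes the 4 h shares were 10.1% lower and 8.45% higher.

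A gene without Ser2P in a DMSO list cannot be called lower, and 11 of the 16 mitochondrial genes are such genes. Among genes with Ser2P in both DMSO lists, 8 of 18 cytoplasmic genes were lower at 2 h, near the 38.7% of all such genes, and 10 of 18 at 4 h, against 29.5%. Of 5 such mitochondrial genes, 1 was lower at 2 h and 0 at 4 h. At 4 h, 0 of these 5 mitochondrial and 3 of the 18 cytoplasmic genes were higher, against 14% of all such genes. All 7 mitochondrial genes called higher at 4 h thus lacked a Ser2P peak in at least 1 DMSO list.

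Lower at both times were 7 cytoplasmic genes, AARS1, FARSA, GARS1, IARS1, MARS1, VARS1 and WARS1, where 7.93% of all genes were. Among genes with Ser2P in both DMSO lists, these were 7 of 18 cytoplasmic genes, against 1589 of 6864 genes. AARS1 had 2.18 and 4.45 kb at 2 h and 4.57 and 3.52 kb at 4 h after CDK-TCIP1, against 11.3 and 7.94 kb in DMSO. IARS1, the isoleucyl enzyme and a member of the multi-synthetase complex, had 0.79 and 1.93 kb at 2 h and 1.47 and 0.585 kb at 4 h, against 4.72 and 5.05 kb in DMSO. VARS1, the valyl enzyme, had 0.792 and 2.72 kb at 2 h and 1.72 and 0.622 kb at 4 h, against 5.58 and 4.77 kb in DMSO. In these 3 genes the DMSO lists stand well above every CDK-TCIP1 list. The windows of VARS1 also reach its neighbours VWA7 and LSM2, and those of AARS1 reach EXOSC6 and DDX19B.

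AARS1 cover averaged 4.04 ± 0.744 kb at 4 h after CDK-TCIP1 and 9.61 ± 2.36 kb in DMSO (SD, n = 2 each), a ratio of 0.421. The ratios at 4 h were 0.21 for IARS1, 0.227 for VARS1, 0.197 for WARS1, 0.364 for FARSA, 0.533 for GARS1 and 0.675 for MARS1. WARS1, the tryptophanyl enzyme, varied most in DMSO among these 7 genes, with 0.904 and 1.08 kb at 2 h and 1.05 and 0.688 kb at 4 h, against 6.93 and 1.89 kb. The windows of MARS1, the methionyl enzyme, also take in part of its neighbour DDIT3, itself a stress-response gene.

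The Ser2P lists differed in total cover, at 4.33 and 13 Mb at 2 h and 14.3 and 11 Mb at 4 h after CDK-TCIP1, against 20.4 and 13.4 Mb in DMSO. As a share of each list's covered bases, AARS1, GARS1, IARS1 and VARS1 were lower at both times, where 4.23% of all genes were. Among genes with Ser2P in both DMSO lists, these were 4 of 18 cytoplasmic genes, against 847 of 6864 genes. TARS1 and EARS2 were higher as a share of covered bases at both times. The other 3 genes, FARSA, MARS1 and WARS1, were not lower at both times as a share.

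**Figure D4:**
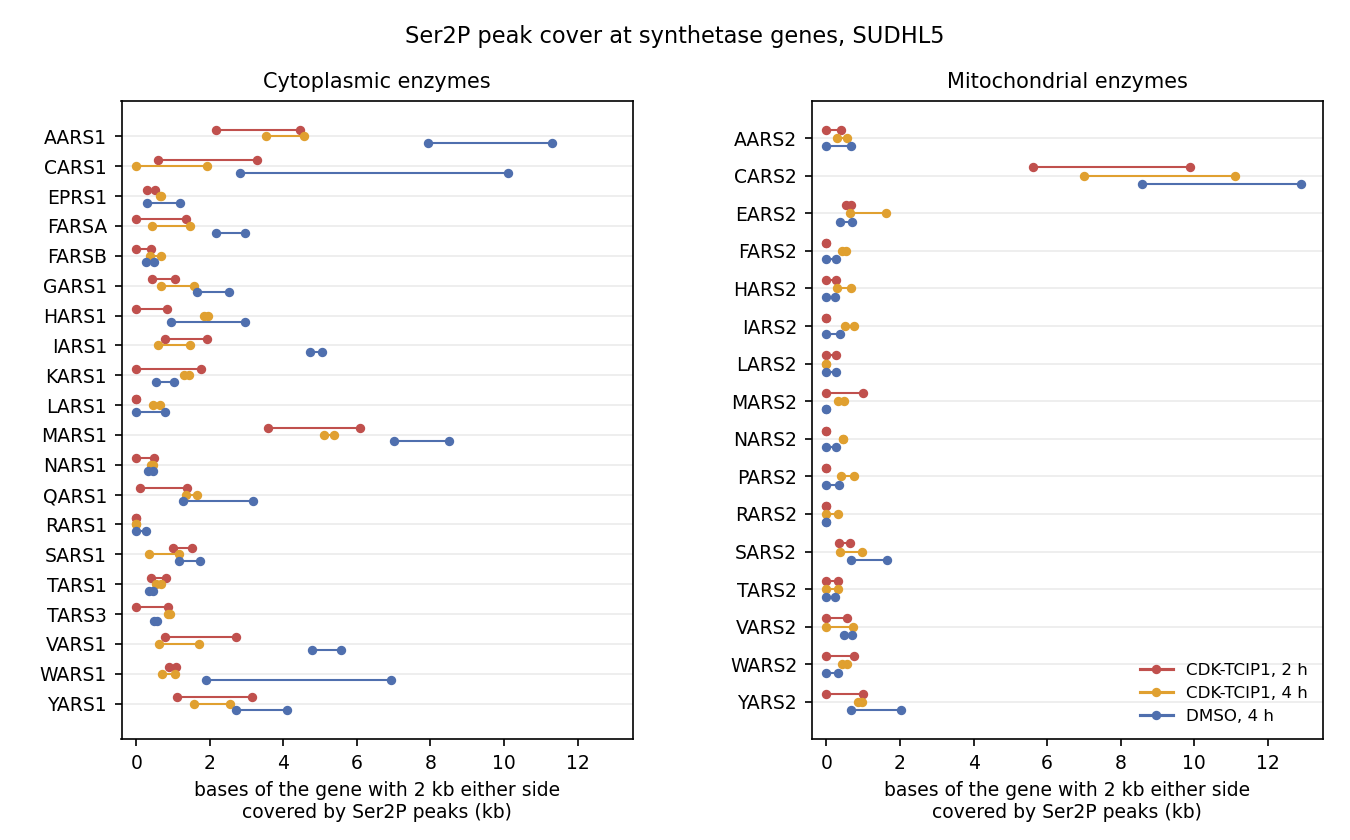
Bases of each synthetase gene with 2 kb on either side that Ser2P peaks covered in SUDHL5, in kb; each point is 1 list and a line joins both lists of a group. In the cytoplasmic panel the DMSO lists of AARS1, IARS1 and VARS1 stand right of every CDK-TCIP1 list, while most mitochondrial genes other than CARS2 stay under 2.1 kb in all lists.

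The lower Ser2P cover lay mostly past the gene start. For the 16 cytoplasmic genes with a known strand, the region within 2 kb of the start had a median of 0.41 kb at 2 h and 0.561 kb at 4 h after CDK-TCIP1, against 0.611 kb in DMSO. Over the rest of the gene and 2 kb past it, the medians were 0.322 kb at 2 h and 0.269 kb at 4 h, against 1.13 kb in DMSO. Near the start, 5 of 16 were lower at 2 h and 3 at 4 h, against 6.04% and 4.17% of all genes with a strand. There 1 was higher at 2 h and 4 at 4 h, against 1.24% and 11.8%. Over the rest, 8 were lower at 2 h and 7 at 4 h, against 12.8% and 10.1%, and 0 were higher at either time, against 0.202% and 2.37%. A gene without Ser2P in a part in either DMSO list cannot be lower there, and the median DMSO cover of all these genes was 0 kb in both parts. Shares without such genes were not computed by part. Over the whole window, 38.7% at 2 h and 29.5% at 4 h of genes with Ser2P in both DMSO lists were lower.

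AARS1 and MARS1 are given by part of the gene. In AARS1, within 2 kb of the start, Ser2P covered 1.05 and 1.62 kb at 2 h and 1.87 and 1.74 kb at 4 h after CDK-TCIP1, against 1.81 and 1.83 kb in DMSO. Over the rest it covered 1.13 and 2.82 kb at 2 h and 2.7 and 1.77 kb at 4 h, against 9.47 and 6.11 kb in DMSO. AARS1 was lower in both parts at 2 h, and at 4 h the groups overlap near the start and stand apart over the rest. Near the start of MARS1, Ser2P covered 0.428 and 0.413 kb at 2 h and 0.576 and 0.473 kb at 4 h after CDK-TCIP1, against 0.381 and 0.397 kb in DMSO. Over its rest the values were 3.15 and 5.68 kb at 2 h and 4.53 and 4.91 kb at 4 h, against 8.13 and 6.62 kb in DMSO. At both times MARS1 was thus higher near its start and lower over the rest. Near the start the 2 h margin was small, the nearest lists being 0.413 kb after CDK-TCIP1 and 0.397 kb in DMSO. IARS1 was lower in both parts at both times.

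**Figure D5:**
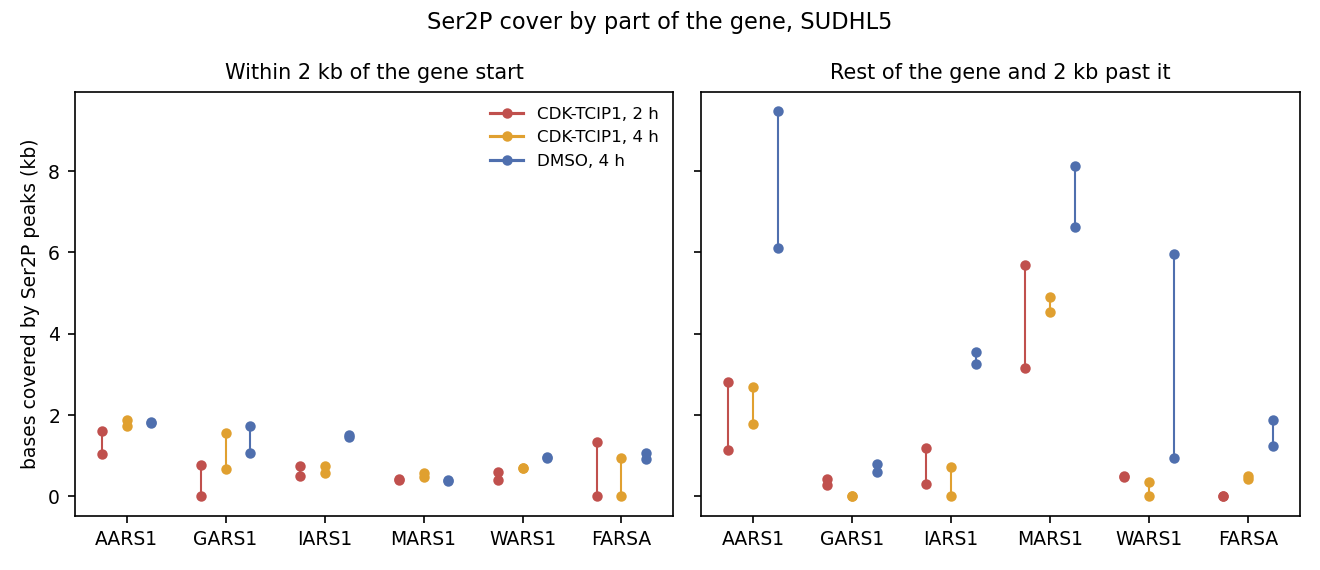
Bases covered by Ser2P peaks in SUDHL5, in kb, within 2 kb of the gene start (left) and over the rest of the gene with 2 kb past it (right), for the 6 genes lower at both times that have a known strand; each point is 1 list and a line joins both lists of a group. For AARS1 the groups stand apart over the rest of the gene, where DMSO reaches 9.47 kb.

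For the mitochondrial genes the 4 h change lay mostly near the annotated start, where 8 of 14 with a known strand were higher and 0 lower. Of all genes with a strand, 11.8% and 4.17% were. Among the 8 is CARS2, whose RefSeq promoter starts lie 7.01 and 7.41 kb inside the gene. HARS2 is another, and its values there are those of HARS1, which starts beside it. Over the rest 1 was higher, against 2.37%: FARS2, whose promoter starts lie 11.1 and 11.6 kb inside the gene. The mitochondrial methionyl gene MARS2 was gained for Ser2P at 4 h, with 0.477 and 0.317 kb at 4 h after CDK-TCIP1, against 0 and 0 kb in DMSO, and 0 and 0.999 kb at 2 h. It was the only synthetase gene gained at 4 h, where 1.37% of all genes were, and none was gained at 2 h (0.135% of all genes). None was lost at either time (1.98% and 1.21%). TARS1 had 0.389 and 0.798 kb at 2 h and 0.531 and 0.666 kb at 4 h, against 0.458 and 0.361 kb in DMSO, so that it was higher at 4 h and overlapped at 2 h.

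The response element and the Ser2P result met in 4 genes. Of 7 cytoplasmic genes with a TGATGNAA match, AARS1, GARS1, IARS1 and MARS1 were lower for Ser2P at both times. Of 9 with an entry but no match, FARSA and WARS1 were. These counts are a description of 16 genes and carry no test. All genes were not split by the match. Of all genes, 7.93% were lower at both times, and of those with Ser2P in both DMSO lists 1589 of 6864 were. As a share of each list's covered bases, AARS1, GARS1 and IARS1 were lower at both times, and MARS1, FARSA and WARS1 were not.

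The permutation test of Ser2P, with both treated times together against DMSO, has 15 relabellings and cannot give a p below 0.133. Those 7 genes reached it, with differences on the log2(covered bases + 100) scale of -2.08 for IARS1, -1.96 for VARS1 and -1.39 for AARS1 among them (exact permutation, p = 0.133 and adjusted p = 1 each). At an unadjusted p under 0.05, 0 of all 20037 genes passed. The smallest p was reached by 8.42% of all genes.

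The third question was Ser5P, the form found near gene starts, and total Pol II. At 2 h, 5 cytoplasmic and 3 mitochondrial genes were higher and 2 cytoplasmic genes lower, against 16.1% of all genes higher and 2.19% lower. At 4 h, 1 cytoplasmic and 1 mitochondrial gene were higher, and 7 cytoplasmic genes and 1 mitochondrial gene lower, against 8.08% higher and 4.24% lower. A gene with no Ser5P peak in any list of a comparison cannot be called. Without such genes, 8 of 32 synthetase genes were higher at 2 h, against 3224 of 8933 genes, and 2 were lower, against 439. At 4 h, 2 of 33 were higher, against 1619 of 8826 genes, and 8 were lower, against 850. The lower genes at 4 h were AARS1, FARSB, IARS1, MARS1, VARS1, WARS1, YARS1 and IARS2.

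TARS1 stood out in the upward direction. Its Ser5P cover was 958 and 1109 bp at 2 h and 605 and 1039 bp at 4 h after CDK-TCIP1, against 375 and 580 bp in DMSO, above both DMSO lists in all 4. The mean at 2 h was 1.03 ± 0.107 kb, against 0.477 ± 0.145 kb in DMSO (SD, n = 2 each). VARS1 went the opposite way, with 1439 and 1014 bp at 2 h and 1109 and 1274 bp at 4 h, against 2102 and 1740 bp in DMSO. VWA7 and LSM2 share the windows of VARS1. TARS1 and VARS1 were the only synthetase genes to reach the smallest possible p in the permutation test of both times against DMSO (exact, p = 0.133, adjusted p = 1, 15 relabellings), as 7.51% of all genes did. Their differences were 0.825 and -0.632 on the log2(covered bases + 100) scale, and no gene had an unadjusted p under 0.05.

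NARS2, the mitochondrial asparaginyl enzyme, was the only synthetase gene gained for Ser5P at 4 h, where 1.40% of all genes were. It had 448 and 387 bp at 4 h after CDK-TCIP1, against 0 and 0 bp in DMSO, and 0 and 458 bp at 2 h. None was gained at 2 h (2.73% of all genes), and none was lost at 2 h or 4 h (0.260% and 0.419%).

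Pol II peaks were found at 5 to 14 of the 36 synthetase genes in the 2 h lists and at 1 to 13 in the 4 h lists after CDK-TCIP1, against 5 to 13 in DMSO. In every Pol II list the share of synthetase genes with a peak was above that of all genes, as in 38.9% against 16.6% in replicate 2 at 2 h. No synthetase gene was gained or lost at 2 h (0.170% and 0.00499% of all genes) or at 4 h (0% and 0.0299%). AARS1 was the one gene whose groups stood apart, though EXOSC6 and DDX19B share its windows. AARS1 had 0, 444 and 0 bp at 4 h after CDK-TCIP1, against 692, 1109 and 981 bp in DMSO, where 0.105% of all genes were lower. At 2 h it had 549, 1085 and 601 bp, overlapping DMSO, and no synthetase gene was higher or lower at that time (0.424% and 0.0200% of all genes). Between same-numbered lists, which deviated together in this comparison, AARS1 was lower at 2 h in all 3 pairs, as were 0.185% of all genes. No other synthetase gene was lower in all 3 pairs and none was higher, against 1.69% of all genes higher. A gene can be lower by either call only with a Pol II peak in all 3 DMSO lists. DMSO replicate 1 held such peaks at 5 synthetase genes and at 536 of all genes. Of all genes, 21 were lower at 4 h and 37 were lower in all 3 pairs at 2 h. Replicate 1 at 4 h after CDK-TCIP1 held 138 peaks in all. TARS1 had no Pol II peak in any of 9 lists. In the permutation test of both times against DMSO, with 84 relabellings and a smallest p of 0.0238, AARS1 had a difference of -1.42 (exact, p = 0.0714, adjusted p = 1). No synthetase gene had an unadjusted p under 0.05, and 2 of all genes did.

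Genes around the synthetases were described by counts from lists taken with earlier results known. Of 7 enzymes of the multi-synthetase complex, 1 (RARS1) gained CDK9 with ab239364 and 0 in the other sets, and 2 were lower for Ser2P at each time. For all genes, the CDK9 gains were 7.57%, 6.31% and 4.38% in the sets, and the shares lower for Ser2P were 13.3% at 2 h and 10.1% at 4 h. Among genes with Ser2P in both DMSO lists, 38.7% and 29.5% were lower. Of 12 synthetases known as ATF4 targets, 5 were lower for Ser2P at 2 h and 8 at 4 h. Of 16 amino acid response genes outside the enzyme family, 7 were lower for Ser2P at 2 h and 7 at 4 h, and 9 were lower for Ser5P at 4 h, where 4.24% of all genes were. Among genes with a Ser5P peak in any list of the 4 h comparison, these were 9 of 14, against 850 of 8826 genes. Among the amino acid response genes, CHAC1, PHGDH and MTHFD2 were gained for CDK9 with ab239364, SLC7A11 in KARPAS422 and none with CST2316S in SUDHL5. EIF2AK4, the kinase GCN2 that senses uncharged tRNA, was lost for Ser2P at both times. Of 8 translation elongation factors, EEF1G, TSFM and GFM2 were gained for CDK9 with ab239364, TSFM in KARPAS422 and none with CST2316S in SUDHL5. Of 8 mitochondrial tRNA modifiers and amidotransferase genes, 2, 1 and 1 were gained in the 3 sets, ab239364 first and KARPAS422 last.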

How the data were processed

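ChIP-seq peak lists of 33 libraries were used; 10 input libraries have no list. The submitters' processing notes name MACS2, Bowtie2, deepTools, bedtools, Trim Galore, SAMtools, FastQC and Picard, and the builds hg38 and dm6. Their versions, and which libraries served as controls, are not given in sources used here. CDK9 samples were spiked with Drosophila chromatin, per the labels' protocols, and nothing used here was scaled by it. The deposited lists give the authors' fold enrichment, a ratio, and the authors' −log10 p and −log10 q per peak, used to rank or filter peaks within a list. Depth is unknown, so no counting interval was given.

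Covered bases were computed with Python 3.11.15 and numpy 2.4.6 over the coding genes of RefSeq's GRCh38.p14 table, within 1 kb of each end of a gene (Ser2P: the gene and 2 kb either side). Strand came from the promoter entries. Tests were exact permutations per gene of log2(covered bases + 100), with Benjamini-Hochberg adjustment over all genes at 0.05, tested on simulated data. A comparison of 2 against 2 lists alone got no p. Members, gene lists and rules were chosen with earlier results of these data known. Values in every list are given for genes gained in 2 or more CDK9 sets, genes gained or lost for a polymerase form and those with CDK9 in most lists; other genes given in full were picked with their values in view. Same-numbered Pol II lists at 2 h and in DMSO were treated as paired, since the deviations of all 3 pairs correlated over 0.1 (0.141 to 0.497); the labels do not state a pairing. The alternatives tried were a stricter q, equal list lengths, other windows, summits, a pseudocount of 1000, genes with a peak, replicate blocks and leaving out each list. For CDK9 the SUDHL5 antibodies were also relabelled separately. Calls on non-overlapping cover, its share of a list, parts of the gene, the Ser5P background, Pol II pairs at 2 h and shared windows were added after the data were seen.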

Additional observations from a re-analysis of the deposited data

Results flagged for a closer look

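The Ser5P cover of FARSB, the beta subunit of the cytoplasmic phenylalanyl enzyme, moved in opposite directions at the 2 times. It was 1202 and 773 bp at 2 h and 468 and 634 bp at 4 h after CDK-TCIP1, against 678 and 766 bp in DMSO. Both 2 h lists lie above and both 4 h lists below the DMSO lists, which the comparisons share, and the mean changes differ by 0.437 kb. That difference was not tested. The nearest lists were 773 bp at 2 h and 766 bp in DMSO. Groups of 2 or 3 lists are too small for a check of single outlying samples.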

How the results depend on the processing

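TARS1 was gained in all 3 CDK9 sets under every alternative except equal list lengths with ab239364, where no synthetase gene was gained. Depth is unknown, and longer lists can hold more peaks of every kind. With equal list lengths, gained counts were 0, 1 and 1 in the CDK9 sets (ab239364, CST2316S in SUDHL5, KARPAS422), lost counts 1 with ab239364 (TARS2) and 4 in KARPAS422, Ser2P gains at 4 h 6 and Pol II losses at 2 h 1. With a −log10 q of at least 5, ab239364 gains were 5, KARPAS422 losses 1 (FARSB), Ser2P losses at 2 h 2 and Ser2P gains at 4 h 3. Among the 17 synthetase genes without shared windows the CDK9 gains were 4, 1 and 1. Leaving out each list gave 8 to 16, 3 to 5 and 3 to 3 gains, and 0 to 1, 0 to 0 and 0 to 3 losses, in the CDK9 sets. For Ser2P it gave 0 to 1 gains and 0 to 8 losses at 2 h, and 1 to 7 and 0 to 2 at 4 h; for Ser5P 0 to 5 and 0 to 0 at 2 h, and 1 to 4 and 0 to 3 at 4 h; for Pol II 0 to 0 and 0 to 1 at 2 h, and 0 to 0 and 0 to 2 at 4 h. Each list left out makes a call easier, so these ranges rise by construction.

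Non-overlapping cover also depended on scaling. As a share of each list, Ser2P at 2 h had 3 cytoplasmic and 2 mitochondrial genes higher and 0 mitochondrial genes lower, and at 4 h 5 cytoplasmic genes higher. Ser5P then had 2 cytoplasmic and 1 mitochondrial gene higher at 2 h, and 2 cytoplasmic and 0 mitochondrial genes lower at 4 h. With equal list lengths 0 mitochondrial genes were lower for Ser2P at 2 h and 1 at 4 h; Ser5P had 1 cytoplasmic gene lower at 2 h and, at 4 h, 2 mitochondrial genes higher and 0 lower. With the stricter q Ser2P at 4 h had 2 mitochondrial genes higher and 1 lower, and Ser5P had 1 cytoplasmic gene lower at 2 h and, at 4 h, 2 cytoplasmic and 2 mitochondrial genes higher and 0 mitochondrial genes lower. The counts of cytoplasmic genes lower for Ser2P stayed within 1.5 times under these 3 alternatives; leaving out each list gave 8 to 17 at 2 h and 10 to 14 at 4 h, with 0 to 4 and 3 to 7 cytoplasmic genes higher. For mitochondrial genes it gave 0 to 5 higher and 1 to 7 lower at 2 h, and 7 to 11 and 0 to 4 at 4 h. For Ser5P it gave 8 to 10 cytoplasmic genes higher and 2 to 7 lower at 2 h, and 2 to 4 and 8 to 14 at 4 h, with 4 to 7 and 0 to 1 mitochondrial genes at 2 h and 1 to 6 and 1 to 5 at 4 h. The cause was not tested for any of these changes.

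No permutation alternative called a synthetase gene. For CDK9, Ser2P and Ser5P the smallest p possible was 0.0556 or more in all but 1 fit, so those fits could not have called a gene. The exception relabelled the SUDHL5 antibodies separately, with a smallest p possible of 0.00926. There 2 synthetase genes had an unadjusted permutation p under 0.05, and the smallest adjusted p of all genes was 0.331. For Pol II, 1 did without CDK-TCIP1 replicate 2 at 2 h. With a replicate block the counts stayed at 0 in all 4 tests, where the smallest p possible was 0.125 for CDK9, 0.222 for Ser2P and Ser5P and 0.0741 for Pol II, so these fits could not have called a gene. Same-numbered Pol II lists deviated together at 2 h against DMSO, where all 3 correlations were over 0.1 (0.497, 0.379 and 0.141). Paired in this way, 1 synthetase gene, AARS1, was lower at 2 h and 0 higher, against 0 lower and 0 higher unpaired, and 3 pairs alone got no p. In the other comparisons the numbers did not meet that bar or had only 2 pairs: correlations ran from -0.0806 to 0.0298 for CDK9, were -0.174 and 0.142 for Ser2P and 0.0642 and -0.0327 for Ser5P, and were 0.597, 0.434 and 0.0667 for Pol II at 4 h.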
